A study of Mus with 12 samples.

Results

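The BCL2 family sets whether a stressed cell keeps its mitochondrial outer membrane intact. Pro-survival members (BCL2, BCL-xL, which is encoded by Bcl2l1, and MCL1) hold back effectors such as BAK (encoded by Bak1), which open this membrane. BOK is counted here as an effector too. BH3-only members (BID, BAD, BIM, which is encoded by Bcl2l11, BIK and BMF) carry the stress signal by binding the other classes. In the kidney, cisplatin is taken up by proximal tubule cells, where it damages DNA and mitochondria, and the mitochondrial route of apoptosis is one of the ways in which these cells die.

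The genes described here are the 10 listed family members Bcl2, Bcl2l1, Mcl1, Bak1, Bok, Bid, Bad, Bcl2l11, Bik and Bmf, out of 19505 named genes on the array. The rule takes the probe sets whose gene symbol in the platform annotation is one of these names and leaves out the family members that are p53 targets. So the classes named below hold the listed members alone and not the whole family. Of 3 members set apart as p53 targets, 2 were measured. Each of the 10 genes had 1 probe set, so no choice among probe sets was needed.

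RNA of whole kidneys was hybridised to 12 Clariom S arrays, 3 in each of 4 groups of male mice of 6 months on the C57Bl/6j background. KO AKI and WT AKI are kidneys of Apobec1 KO and wild type mice given cisplatin (CP) at 15 mg/kg and collected at 3 days, and KO control and WT control are kidneys of KO and wild type mice given saline. According to the methods, the KO mice are homozygous for a disruption of Apobec1, which encodes an RNA-editing enzyme, and were backcrossed to C57BL6J. According to the labels, the wild type mice were bought and the KO mice were bred in house, so genotype and source of the mice cannot be told apart. The 3 arrays of a group carry replicate numbers, and the p-values measure the spread between these arrays.

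Values are log2 signals, and a step of 1 is a doubling of the signal. Background was read on each array from probe sets that match no mouse transcript and lay between 6.15 and 6.52. A gene is called where the Benjamini-Hochberg adjusted p of limma, taken over all 19505 genes, is under 0.05, and upregulated and downregulated stand for called changes alone. Of the 10 genes, 4 (Bcl2, Bcl2l1, Mcl1 and Bik) lay above background on all 12 arrays. Bid did so on 10 arrays, Bok on 6, Bak1 on 5, Bad on 2, Bmf on 1 and Bcl2l11 on 0. A filter asking for signal above background on at least 3 arrays kept 7 of them, and 49.7% of all genes.

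The array signal of Apobec1 does not check the genotype labels, although per the methods the KO line had been genotyped and its Apobec1 mRNA measured. Its log2 signals were 7.58, 7.50 and 7.66 in KO control kidneys and 7.18, 6.63 and 7.33 in WT control kidneys, and the difference was not called (adjusted p = 0.946 by limma). After cisplatin it gave 9.75, 7.33 and 8.48 in KO AKI kidneys, against 8.97, 8.56 and 8.38 in WT AKI kidneys, which overlap. Where its probes lie relative to the disrupted part of the gene was not known. KO AKI replicate 2 stood apart: it had the lowest weight in limma's array weighting (0.29, against 0.67 to 2.01 for the other arrays). Summed over 10 proximal tubule markers, its log2 signal was 14.65, against 17.97 and 18.80 for the other KO AKI kidneys. The differences of the 10 BCL2 family genes were therefore also obtained without it, as were those between AKI and control of the further genes plotted below. The marker signals and marker counts below and the correlations between genes were obtained with all arrays only.

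**Figure D1:**
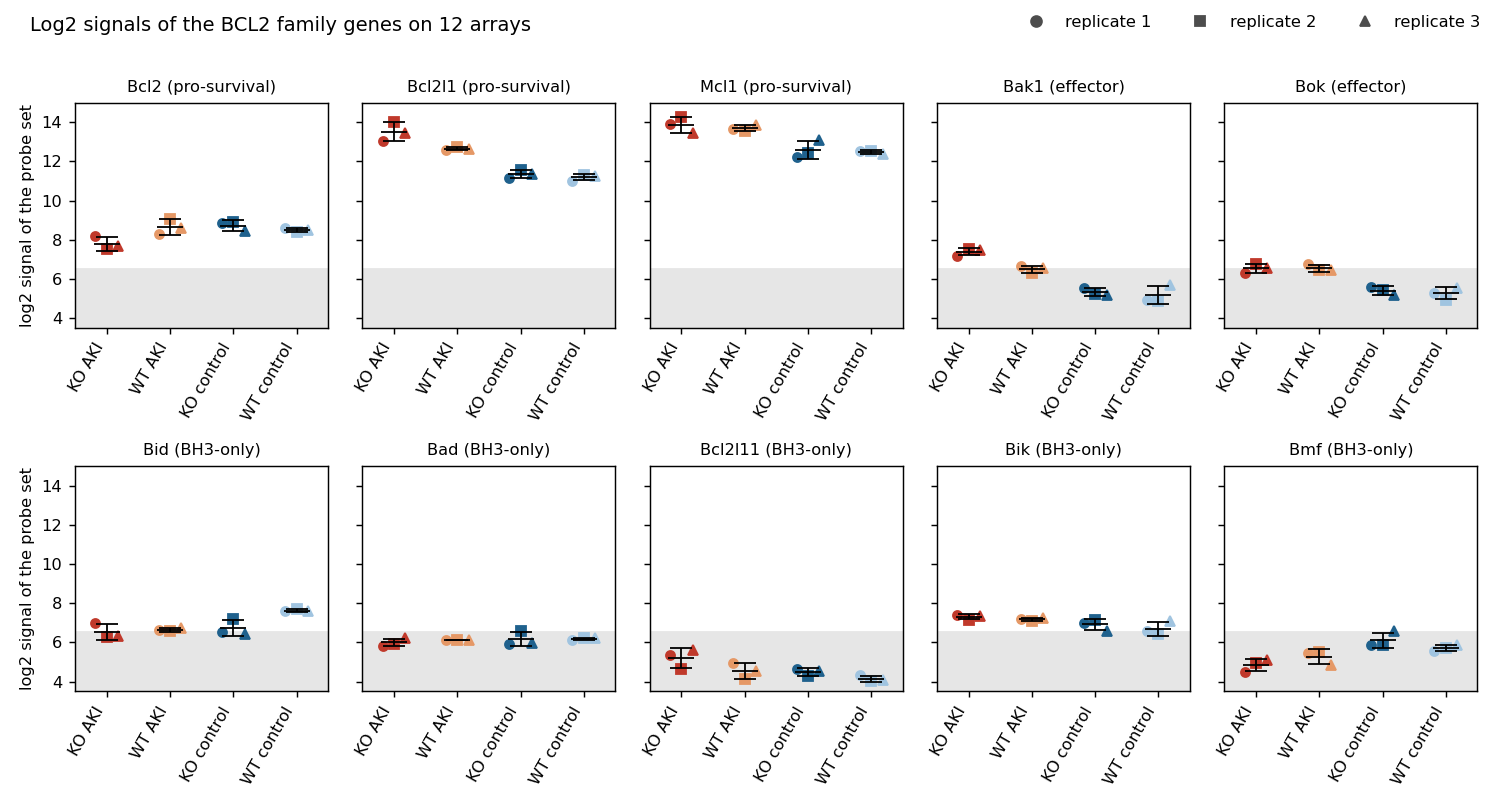
Log2 signals of the 10 BCL2 family genes on the 12 arrays, with 1 panel for each gene and the 4 groups on the horizontal axis. Points are single arrays, with the replicate given by the symbol, black bars are the mean and SD of 3 arrays, and the grey band ends at the highest background of any array (6.52). Bcl2l1, Mcl1, Bak1 and Bok lie higher in both AKI groups than in both control groups, and Bcl2 is lowest in KO AKI kidneys (7.52 to 8.18).

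Among the pro-survival genes, Bcl2l1 and Mcl1 were upregulated by cisplatin in both genotypes. Bcl2l1 (probe set TC0200004913.mm.2) had log2 signals of 13.04, 14.02 and 13.47 in KO AKI kidneys, against 11.16, 11.58 and 11.33 in KO control kidneys. In WT AKI kidneys it had 12.58, 12.74 and 12.64, against 11.02, 11.31 and 11.25 in WT control kidneys. Neither pair of groups overlapped, and the 3 KO AKI kidneys were the highest of all 12. The increase was 4.44-fold in KO kidneys (log2 difference 2.15 ± 0.24 SE, n = 3 against 3, adjusted p = 3.45e-05 by limma) and 2.75-fold in WT kidneys (1.46 ± 0.24, adjusted p = 0.0018 by limma).

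Mcl1 (probe set TC0300000910.mm.2), whose protein is short-lived and has to be made continuously, was called in both genotypes. Its log2 signals were 13.90, 14.25 and 13.43 in KO AKI kidneys, against 12.20, 12.42 and 13.10 in KO control kidneys. They were 13.65, 13.56 and 13.86 in WT AKI kidneys, against 12.52, 12.54 and 12.36 in WT control kidneys. Here too the AKI and control groups did not overlap, with KO control replicate 3 the highest of the control kidneys. The increase was 2.44-fold in KO kidneys (adjusted p = 0.00255 by limma) and 2.33-fold in WT kidneys (adjusted p = 0.00757 by limma).

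Bcl2 (probe set TC0100002894.mm.2), the founding member of the family, did not follow them. It was downregulated 1.91-fold in KO AKI kidneys, with log2 signals of 8.18, 7.52 and 7.66, against 8.85, 8.89 and 8.42 in KO control kidneys (log2 difference -0.93 ± 0.25 SE, adjusted p = 0.0124 by limma). In WT AKI kidneys its signals were 8.28, 9.08 and 8.58, against 8.61, 8.41 and 8.47 in WT control kidneys. These WT groups overlapped, and the difference of 0.15, with a 95% interval of -0.37 to 0.68, was not called (adjusted p = 0.712 by limma). The 3 KO AKI kidneys had the lowest Bcl2 signals of all 12.

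Both listed effectors were upregulated by cisplatin in both genotypes, and neither was above background without it. Bak1 (probe set TC1700001714.mm.2) had log2 signals of 7.18, 7.51 and 7.49 in KO AKI kidneys, against 5.54, 5.23 and 5.19 in KO control kidneys. In WT AKI kidneys it had 6.64, 6.29 and 6.55, against 4.93, 4.88 and 5.69 in WT control kidneys. It was above background in 3 of 3 KO AKI kidneys, 2 of 3 WT AKI kidneys and none of the 6 control kidneys. Since a signal under background has no known size, the increase is given as a bound: at least 2.06-fold in KO kidneys (adjusted p = 4.3e-05 by limma) and at least 1.2-fold in WT kidneys (adjusted p = 0.00286 by limma). Such a bound sets the mean of the AKI arrays against the mean background of the control arrays.

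Bok (probe set TC0100000942.mm.2) had overlapping signals in the AKI groups of both genotypes. Its log2 signals were 6.32, 6.76 and 6.54 in KO AKI kidneys, against 5.59, 5.44 and 5.17 in KO control kidneys. They were 6.75, 6.44 and 6.43 in WT AKI kidneys, against 5.27, 4.94 and 5.55 in WT control kidneys. All 6 AKI kidneys were above background by a small margin and no control kidney was. The increase was at least 1.14-fold in KO kidneys (adjusted p = 0.00174 by limma) and at least 1.24-fold in WT kidneys (adjusted p = 0.00215 by limma).

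None of the 5 listed BH3-only genes was upregulated by the test, and 1 was downregulated in each genotype, a different one. Bid (probe set TC0600003048.mm.2), whose protein is cut by caspase-8 and links death receptors to mitochondria, was downregulated 1.97-fold in WT AKI kidneys. Its log2 signals were 6.64, 6.56 and 6.75 in WT AKI kidneys, against 7.59, 7.71 and 7.58 in WT control kidneys (difference -0.98 ± 0.24 SE, adjusted p = 0.0174 by limma). In KO AKI kidneys they were 6.98, 6.27 and 6.31, against 6.53, 7.19 and 6.44 in KO control kidneys. The WT groups did not overlap, while the KO groups did, with a difference of -0.20 and a 95% interval of -0.72 to 0.31 (adjusted p = 0.566 by limma). The call in WT kidneys missed the threshold without WT control replicate 2 (adjusted p = 0.0567), WT AKI replicate 1 (0.0536) or WT AKI replicate 2 (0.0555), with 17 of 20 alternatives keeping it.

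Bmf (probe set TC0200004415.mm.2), which binds a dynein light chain until it is released, was called lower in KO AKI kidneys. Its log2 signals were 4.49, 4.94 and 5.08 in KO AKI kidneys, against 5.88, 5.86 and 6.56 in KO control kidneys (difference -1.27 ± 0.26 SE, adjusted p = 0.00278 by limma). In WT AKI kidneys they were 5.44, 5.52 and 4.83, against 5.58, 5.74 and 5.88 in WT control kidneys (adjusted p = 0.235). KO control replicate 3 was the only one of the 12 kidneys above background, so no fold is given, and the groups separate within signals that are mostly background.

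The other listed BH3-only genes were not called in any comparison. Bik (probe set TC1500000775.mm.2) ranged from 7.17 to 7.40 in KO AKI kidneys, against 6.59 to 7.16 in KO control kidneys, and from 7.09 to 7.26 in WT AKI kidneys, against 6.41 to 7.08 in WT control kidneys. Within each genotype the AKI kidneys lay just above the control kidneys with no overlap, with adjusted p of 0.193 in KO and 0.147 in WT kidneys by limma. Bad (probe set TC1900000126.mm.2), a phosphorylation-controlled inhibitor of BCL2 and BCL-xL, ranged from 5.84 to 6.22 in KO AKI and from 6.10 to 6.12 in WT AKI kidneys, against 5.92 to 6.60 in KO control and 6.12 to 6.23 in WT control kidneys, so all groups lay around background. Bcl2l11 (probe set TC0200001927.mm.2), which encodes a potent activator of the effectors, gave 5.35, 4.64 and 5.61 in KO AKI kidneys, against 4.65, 4.28 and 4.56 in KO control kidneys, all under background (adjusted p = 0.0636 by limma). It passed the threshold with array weights (adjusted p = 0.0169) and without KO AKI replicate 2 (adjusted p = 0.00996), but no fold can be given for a gene under background on every array.

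In counts, 4 of the 10 genes were called higher and 2 lower in KO AKI than in KO control kidneys, where 15.4% of all genes were called higher and 12.6% lower. In WT AKI against WT control kidneys, 4 were called higher and 1 lower, where 8.63% of all genes were called higher and 5.34% lower. The 4 upregulated genes, Bcl2l1, Mcl1, Bak1 and Bok, were the same in both genotypes. The median log2 difference of the 10 genes was 0.55 in KO kidneys and 0.45 in WT kidneys, against 0.06 over all genes in both. By class, 2 of 3 listed pro-survival genes and 2 of 2 listed effectors were upregulated in each genotype, and 0 of 5 listed BH3-only genes. Of these 5, 2 in each genotype had an unadjusted p under 0.05 in either direction. The share of all genes with such a p was not computed for AKI against control, here or below. Without KO AKI replicate 2, all 6 calls in KO kidneys stood, with log2 differences of 1.89 for Bcl2l1, 1.09 for Mcl1, 2.02 for Bak1, 1.03 for Bok, -0.80 for Bcl2 and -1.32 for Bmf.

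**Figure D2:**
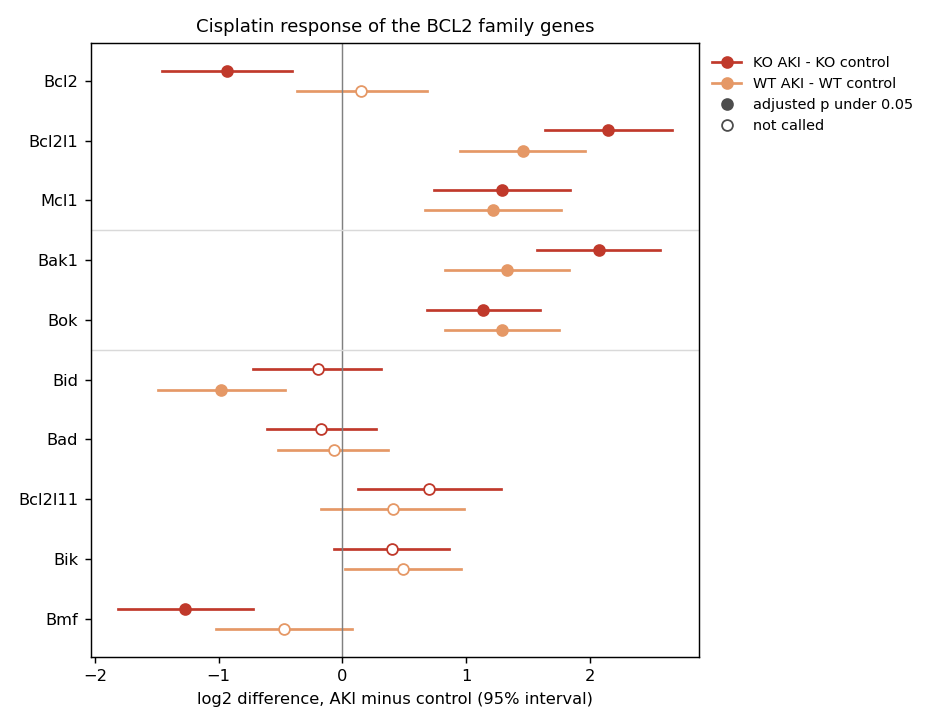
Log2 difference of AKI minus control for each of the 10 genes, in KO kidneys (dark red) and WT kidneys (orange). Points are limma estimates from 3 arrays a group, lines their 95% intervals, filled points genes called at an adjusted p under 0.05, and grey lines divide the pro-survival, effector and BH3-only genes from top to bottom. Bcl2l1, Mcl1, Bak1 and Bok have filled points right of 0 in both genotypes, Bcl2 and Bmf left of 0 in KO kidneys and Bid left of 0 in WT kidneys.

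The 4 groups are whole kidneys, in which fewer cells of a type and less RNA per cell cannot be told apart, and cell type markers moved with cisplatin. The summed log2 signal of the 10 proximal tubule markers ranged from 14.65 to 18.80 in KO AKI kidneys and from 19.33 to 19.73 in WT AKI kidneys, against 20.49 to 20.56 in KO control and 20.21 to 20.29 in WT control kidneys, and all 10 lay above background in every WT AKI and control kidney. In KO AKI against KO control kidneys, 9 of the 10 tubule markers were called lower, and 0 of 10 were called in WT AKI against WT control kidneys, where 1 had an unadjusted p under 0.05. The 9 measured macrophage and monocyte markers summed to between 11.81 and 13.00 in KO AKI, 11.07 and 11.63 in WT AKI, 10.24 and 10.91 in KO control and 10.63 and 10.80 in WT control kidneys. Neutrophil markers (7 measured) summed to 7.63, 9.88 and 7.73 in KO AKI replicates 1, 2 and 3. They summed to between 7.52 and 7.70 in WT AKI, 7.02 and 7.33 in KO control and 7.35 and 7.56 in WT control kidneys. In every group 0 of the 7 lay above background on all 3 arrays, and Mpo, Elane, Cxcr2 and Csf3r were under background on every array. The part of these cell types in the changes of the BCL2 family genes was not tested.

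Whether loss of Apobec1 changed the family in the injured kidney was asked by comparing KO AKI with WT AKI. None of the 10 genes was called by limma, where 0.487% of all genes were called, and 4 of the 10 had an unadjusted p under 0.05, as did 15.3% of all genes. The 3 largest differences were in Bak1, Bcl2l1 and Bcl2, whose KO AKI and WT AKI kidneys did not overlap. Bak1 was 1.87-fold higher in KO AKI kidneys, with 7.18, 7.51 and 7.49 against 6.64, 6.29 and 6.55 in WT AKI kidneys (log2 difference 0.90 ± 0.23 SE, 95% interval 0.40 to 1.40, adjusted p = 0.0923 by limma). These WT AKI signals of Bak1 lay near the backgrounds of their arrays (6.32, 6.36 and 6.40), with replicate 2 under background, so the size of this fold is uncertain. Bcl2l1 was 1.81-fold higher, with 13.04, 14.02 and 13.47 against 12.58, 12.74 and 12.64 in WT AKI kidneys (0.86 ± 0.24, interval 0.35 to 1.36, adjusted p = 0.109 by limma). Bcl2 was 1.82-fold lower, with 8.18, 7.52 and 7.66 against 8.28, 9.08 and 8.58 in WT AKI kidneys (-0.86 ± 0.25, interval -1.39 to -0.34, adjusted p = 0.12 by limma). So in each of the 3 genes the KO AKI kidneys lay wholly to one side of the WT AKI kidneys, but none passed the adjustment over all genes. The share of all genes whose KO AKI and WT AKI kidneys do not overlap was not computed, so this separation is a description. Exact permutation with 3 arrays in each group reaches a two-sided p of 0.1 at best, so it was not used.

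The calls for these 3 genes turned on 1 array. Without KO AKI replicate 1, which lay nearest to the WT AKI kidneys in all 3, Bcl2l1 (log2 difference 1.09, adjusted p = 0.0137 by limma), Bcl2 (-1.06, adjusted p = 0.0262) and Bak1 (1.01, adjusted p = 0.0371) were called, and the share of all genes called was then 6.02%. Without KO AKI replicate 2, none was called, with differences of 0.60 for Bcl2l1, -0.73 for Bcl2 and 0.84 for Bak1. Over all 20 alternatives the adjusted p ranged from 0.0137 to 0.402 for Bcl2l1, from 0.0262 to 0.407 for Bcl2 and from 0.0371 to 0.37 for Bak1, and no alternative turned their direction. These 3 genes are also among those that the study listed for apoptosis from these same arrays. That list came from a p-value and fold-change filter unlike the adjusted p used here. It gives no direction for the 3 genes and is not independent evidence.

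The other listed genes were closer between KO AKI and WT AKI kidneys. Mcl1 differed by 0.17 (95% interval -0.38 to 0.72) and Bok had equal group means of 6.54 (interval of the difference -0.46 to 0.46). Bid differed by -0.13 (interval -0.65 to 0.38), Bik by 0.13 (interval -0.33 to 0.60) and Bad by -0.11 (interval -0.55 to 0.33). Bmf differed by -0.43 and Bcl2l11 by 0.65, both within background in both groups. Since the intervals of the genes above background reach 0.72 on the log2 scale, they do not show that these genes are alike in both genotypes.

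**Figure D3:**
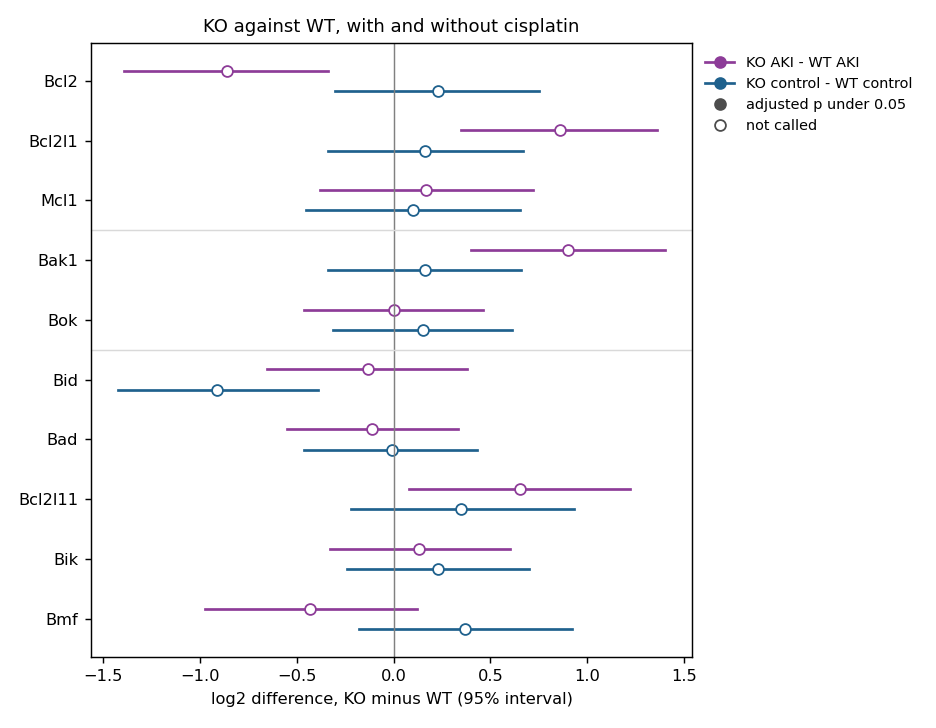
Log2 difference of KO minus WT for each of the 10 genes, in AKI kidneys (purple) and control kidneys (blue). Points are limma estimates from 3 arrays a group and lines their 95% intervals, and all points are open because no difference was called. The intervals of Bcl2 (-1.39 to -0.34), Bcl2l1 (0.35 to 1.36), Bak1 (0.40 to 1.40) and Bcl2l11 lie to one side of 0 in AKI kidneys, and that of Bid (-1.42 to -0.39) does so in control kidneys.

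Without cisplatin, none of the 10 genes was called between KO control and WT control kidneys by limma, where 0.0513% of all genes were called, and 1 of the 10 had an unadjusted p under 0.05, against 6.17% of all genes. That gene was Bid, with 6.53, 7.19 and 6.44 in KO control kidneys and 7.59, 7.71 and 7.58 in WT control kidneys (log2 difference -0.91 ± 0.24 SE, 95% interval -1.42 to -0.39, unadjusted p = 0.00215, adjusted p = 0.414). All 3 KO control kidneys lay under all 3 WT control kidneys, and 2 of the 3 lay within the range of the AKI kidneys of both genotypes (6.27 to 6.98). In the RefSeq annotation of the assembly GRCm38.p6, Bid lies on chromosome 6, as does Apobec1, with 16 protein-coding genes starting between them, so an effect of losing Apobec1 and one of DNA linked to the disrupted gene cannot be told apart for Bid. The genome build behind the probe sets was not given in the sources used here, and no coordinates are given.

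Whether the response to cisplatin itself differed by genotype was tested as an interaction term. None of the 10 genes was called by limma, where 0.0308% of all genes were called, and 4 of the 10 had an unadjusted p under 0.05, against 10.4% of all genes. These were Bcl2, with an interaction of -1.09 ± 0.35 SE on the log2 scale (adjusted p = 0.327 by limma), Bid with 0.77 (adjusted p = 0.457), Bak1 with 0.74 (adjusted p = 0.464) and Bmf with -0.80 (adjusted p = 0.472). Bcl2l1 had 0.69 (95% interval -0.02 to 1.41, adjusted p = 0.499) and Mcl1 0.07 (interval -0.71 to 0.85). That Bcl2 and Bmf were called in KO kidneys alone and Bid in WT kidneys alone is therefore not shown to be a difference between genotypes.

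In Bcl2l1, Bcl2 and Bak1 the KO AKI kidneys also differed among themselves in the same order as their tubule markers. Replicates 1, 3 and 2, with summed tubule marker signals of 18.80, 17.97 and 14.65, had Bcl2l1 signals of 13.04, 13.47 and 14.02 and Bcl2 signals of 8.18, 7.66 and 7.52. Bak1 followed with 7.18, 7.49 and 7.51. Bok, Bid and Bik kept this order too, while Mcl1 (13.90, 13.43 and 14.25), Bad, Bcl2l11 and Bmf did not. The share of all genes that keep it was not computed. With 3 kidneys no test of this order was made, and the part of the tubule markers' change in it was not tested.

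**Figure D4:**
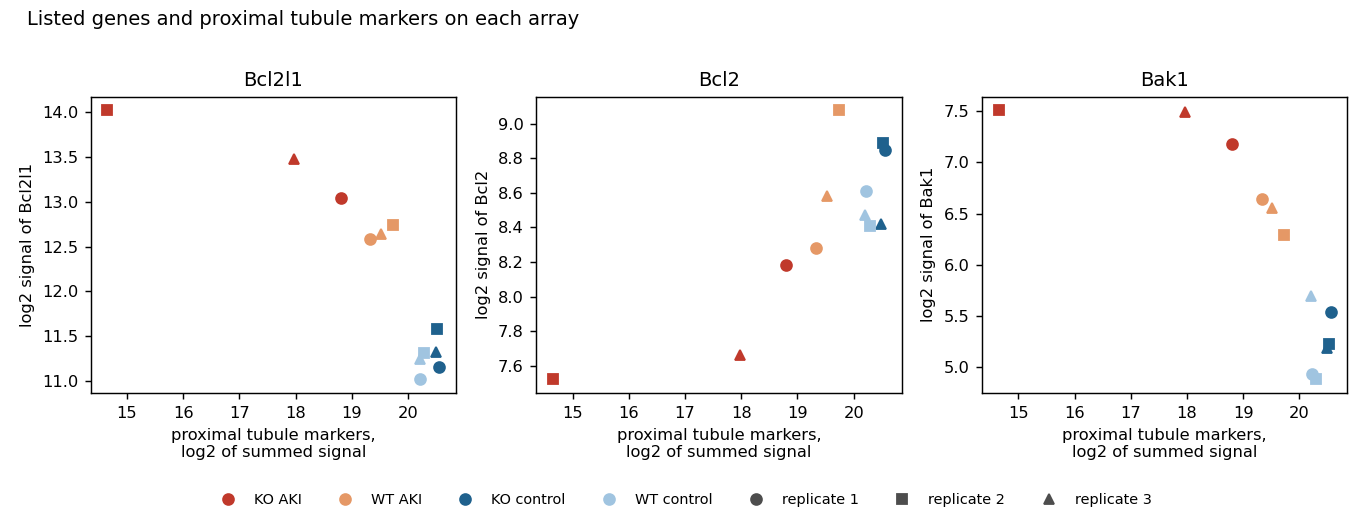
Log2 signals of Bcl2l1, Bcl2 and Bak1 on each of the 12 arrays (vertical axes) against the log2 summed signal of 10 proximal tubule markers on the same array (horizontal axis), with the group given by the colour and the replicate by the symbol. The KO AKI kidneys have the lowest tubule marker signals (14.65 to 18.80), the highest Bcl2l1 and Bak1 signals and the lowest Bcl2 signals.

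To place the listed genes among the genes they work with, 86 further genes of the pathway were taken, of which 75 were measured. In KO AKI against KO control kidneys 24 of the 75 were upregulated and 7 downregulated, and in WT AKI against WT control kidneys 14 were upregulated and 5 downregulated, against the shares of all genes given above (15.4% higher and 12.6% lower in KO kidneys, 8.63% higher and 5.34% lower in WT kidneys). These counts include genes whose signal was background: Fasl and E2f1, called higher in KO kidneys, and Naip5, called higher in WT kidneys, lay above background on 0 of 12 arrays, and Naip2, called higher in WT kidneys, on 1. These 4 genes are named after their values were seen. Of 9 measured genes for death receptors, their ligands and the adaptors and caspase upstream of BID, 4 were upregulated (Fasl among them) and 1 downregulated in KO kidneys, and 3 were upregulated and 3 downregulated in WT kidneys. Tnfrsf10b, the mouse TRAIL receptor, averaged 9.08 in KO AKI kidneys and 7.68 in WT AKI kidneys, against 3.82 in KO control and 3.93 in WT control kidneys. That is an increase of at least 6.62-fold in KO kidneys (adjusted p = 8.66e-08 by limma) and at least 2.73-fold in WT kidneys (adjusted p = 6.63e-06 by limma). It was also the only one of the 75 genes called between KO AKI and WT AKI kidneys, where it was 2.64-fold higher (adjusted p = 0.0477), a call that 5 of 20 alternatives kept, with adjusted p from 0.00426 to 0.37.

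Its ligand Tnfsf10, which encodes TRAIL, went the other way, 4.49-fold lower in KO AKI than in KO control kidneys (adjusted p = 0.000938 by limma) and 2.66-fold lower in WT AKI than in WT control kidneys (adjusted p = 0.0238, and 0.0781 to 0.0914 without WT control replicate 1 or 3 or WT AKI replicate 2 or 3). Tnfrsf1a, a TNF receptor, was upregulated 5.12-fold in KO and 2.87-fold in WT kidneys. So the receptor gene and the ligand gene changed in opposite directions in both genotypes.

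Of the family members outside the list, Pmaip1, which encodes the BH3-only protein NOXA that binds MCL1, was upregulated 7.02-fold in KO kidneys (adjusted p = 0.000172 by limma) and 4.21-fold in WT kidneys (adjusted p = 0.00348 by limma). KO AKI replicate 2 gave 10.31 for Pmaip1, against 8.54 and 8.97 in the other KO AKI kidneys. Over the alternatives the log2 difference of Pmaip1 ran from 2.29 to 3.18 in KO and from 1.85 to 2.36 in WT kidneys. Its signal was above background in 2 of 3 KO control and 1 of 3 WT control kidneys. Bbc3, which encodes the BH3-only protein PUMA and is named after its values were seen, lay above background on 0 of 12 arrays and was not called (adjusted p = 0.0596 in KO and 0.205 in WT kidneys). Bcl2a1b and Bcl2a1d, near-identical copies of a pro-survival gene whose probes may share signal, were called higher in KO kidneys close to background. The copy Bcl2a1a, named after its values were seen, was above background in 3 of 3 KO AKI and 1 of 3 KO control kidneys. It was not called in KO kidneys (log2 difference 0.46, adjusted p = 0.176 by limma). Among 5 measured apoptosome and caspase genes, Apaf1, the scaffold that activates caspase-9 after cytochrome c release, was upregulated at least 1.83-fold in KO and at least 1.24-fold in WT kidneys. Casp6, an executioner caspase, was downregulated 3.01-fold in WT kidneys (adjusted p = 0.00247 by limma) and had a log2 difference of -0.44 in KO kidneys (adjusted p = 0.252).

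Inhibitors of apoptosis, which act on caspases and on receptor signalling, had 3 of 8 measured genes upregulated and 1 downregulated in KO kidneys, and 4 upregulated in WT kidneys, of which Naip5 and Naip2 are the genes at background named above. Birc3 (cIAP2) was upregulated 7.11-fold in KO and 3.74-fold in WT kidneys, and Birc2 (cIAP1) 3.1-fold and 2.6-fold in the same comparisons. Birc6 was downregulated 1.81-fold in KO kidneys. Of 10 genes for proteins released from mitochondria or forming their channels, none was upregulated by limma. In either direction, 4 in KO and 2 in WT kidneys had an unadjusted p under 0.05, with no share of all genes to set beside them. Among them Ppif, which encodes cyclophilin D of the permeability transition pore, was downregulated 2.01-fold in KO and 2.37-fold in WT kidneys, and Aifm1, which encodes apoptosis-inducing factor, was downregulated 2.6-fold in KO kidneys. For Aifm1, KO AKI replicate 2 gave 12.35, against 13.99 and 13.61 in the other KO AKI kidneys. Its log2 difference in KO kidneys was -1.38, and ran from -1.71 to -0.89 over 20 alternatives, with adjusted p up to 0.0467 by limma.

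Partners and modifiers of the listed proteins had 7 of 17 measured genes upregulated and 2 downregulated in KO kidneys, and 1 upregulated in WT kidneys. Dynll1, a dynein light chain that binds BIM, was upregulated 3.1-fold in KO kidneys (adjusted p = 0.000329 by limma) and had a log2 difference of 0.29 in WT kidneys (adjusted p = 0.445). Dynll2, the light chain that binds BMF, was downregulated 1.94-fold in KO kidneys (adjusted p = 0.0177 by limma, and 0.0692 and 0.0623 without KO control replicate 3 and KO AKI replicate 2). Ywhah, one of the 14-3-3 proteins that hold phosphorylated BAD, was upregulated 9.79-fold in KO kidneys (adjusted p = 0.000328 by limma) and had a log2 difference of 1.08 in WT kidneys (adjusted p = 0.154). KO AKI replicate 2 gave 15.93, against 13.46 and 13.51 in the other KO AKI kidneys, and without it the log2 difference in KO kidneys was 2.48 in place of 3.29, and that in WT kidneys was called (adjusted p = 0.00177). The interaction was not called by limma for any of the 75 genes, and 11 had an unadjusted p under 0.05, where 10.4% of all genes did. Among 11 measured transcription factors known to act on listed genes, 6 were upregulated in KO (E2f1, at background, among them) and 4 in WT kidneys. They include Stat3, which drives Bcl2l1 and Mcl1 in many cells, with 8.86-fold in KO and 5.52-fold in WT kidneys. Jun was upregulated 9.67-fold in KO (adjusted p = 0.00452 by limma) and 7.09-fold in WT kidneys (adjusted p = 0.02, and 0.0876, 0.0819 and 0.0833 without WT control replicate 1, WT control replicate 3 and WT AKI replicate 3). Its log2 signal ran from 7.18 to 9.78 in KO control and from 7.58 to 10.20 in WT control kidneys. The log2 difference in KO kidneys was 3.27, and 2.65 and 3.95 without KO control replicates 1 and 2, and that in WT kidneys was 2.83, and 3.68 without WT control replicate 2.

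**Figure D5:**
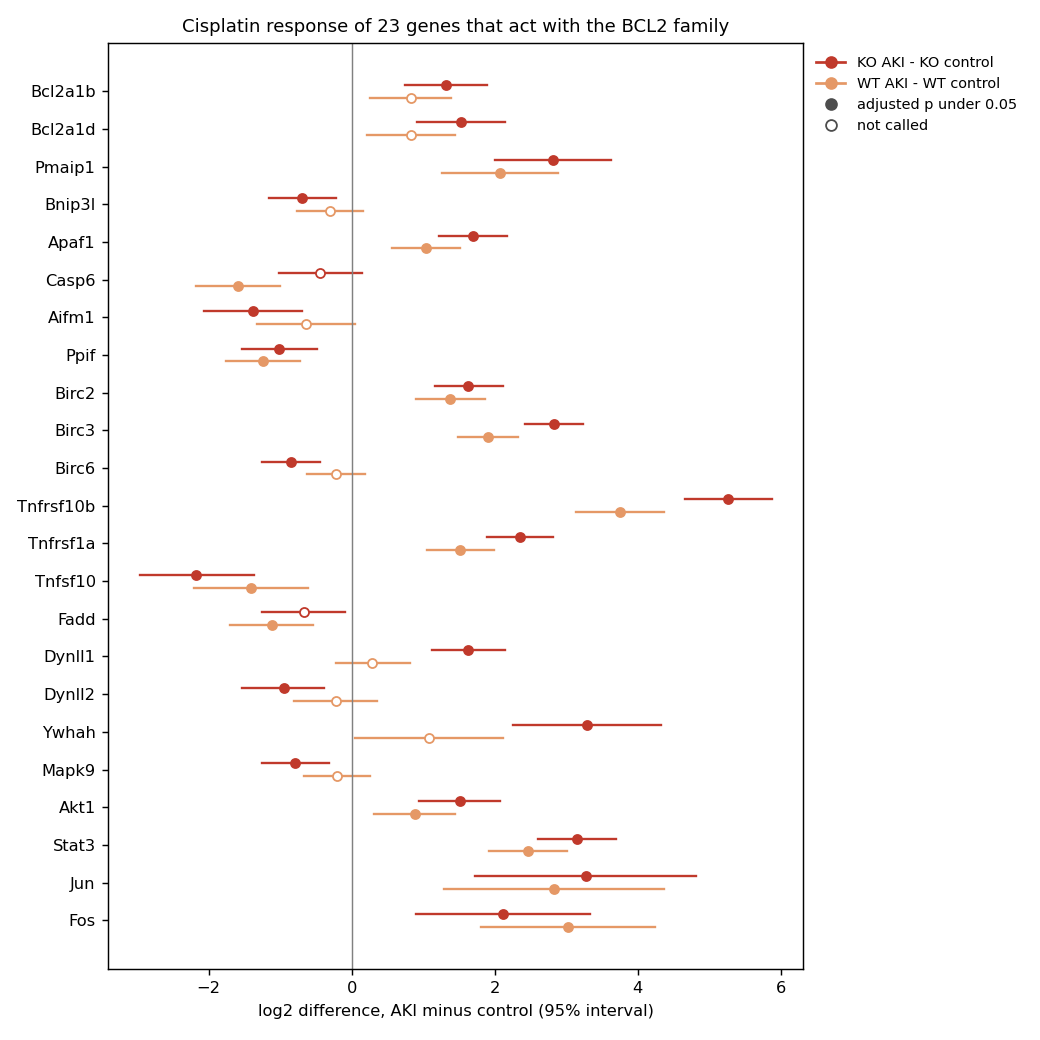
Log2 difference of AKI minus control for 23 genes named from the lists of the wider pathway, in KO kidneys (dark red) and WT kidneys (orange). Points are limma estimates from 3 arrays a group, lines their 95% intervals and filled points genes called at an adjusted p under 0.05. Tnfrsf10b has the largest differences shown (5.26 in KO and 3.75 in WT kidneys). Bcl2a1b, Bcl2a1d, Bnip3l, Aifm1, Birc6, Dynll1, Dynll2, Ywhah and Mapk9 are filled in KO kidneys alone, and Casp6 and Fadd in WT kidneys alone. No interaction was called for these genes.

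The patterns of the listed genes over the 12 arrays were also set against the 7432 genes above background on every array. The gene most like Bcl2l1 was Steap1, a metalloreductase (Pearson r = 0.99 over 12 arrays), the gene most like Mcl1 was Spred1, an inhibitor of the Ras pathway (0.98), and the gene most like Bak1 was Cp, which encodes ceruloplasmin (0.97). Bcl2 was most like Akr1a1, an aldehyde reductase (0.92), and Bid most like Smim10l1 (0.93). For Bad the highest r was 0.84, with Cox5a, the lowest such value of the 10. These are descriptions over arrays that share 4 groups, and each is the highest of 7432 values.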

How the data were processed

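Clariom S mouse arrays of 12 kidney RNA samples were used. The authors deposited 1 log2 signal for each probe set on each array. The submitters' processing notes name Transcriptome Analysis Console, with no version. These deposited log2 values were used as they were. Background correction and normalization were not given in the sources used here. Array medians lay between 5.73 and 5.96. Symbols came from the platform annotation, with the probe set of highest mean for each of 19505 genes.

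Group means of all 12 arrays were fitted with lmFit and eBayes of limma 3.58.1 in R 4.3.3 (8 residual and 5.6 prior degrees of freedom) and compared as KO AKI with WT AKI, AKI with control in each genotype, KO control with WT control, and the interaction. p-values were adjusted by Benjamini-Hochberg over all genes. The fit was tested on simulated data. Background was the 95th percentile of 23 antigenomic probe sets on each array. A fold against a group with no signal above background is a bound, taken against the mean background of that group.

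The members and the gene lists were chosen with earlier results of these data known. The rule named all 10 members, the list genes called between KO AKI and WT AKI or in the interaction, the 2 largest called rises and falls of each list in the other comparisons, and the 1 gene most like each member. The text prints most of them and plots the others. Lists of collecting duct, distal tubule, endothelium, T cell and B cell markers were also fixed, and the closing section gives their counts. Alternatives were quantile normalization, median centring, array weights, the replicate number as a block, fitting only the groups compared, a filter on background, the mean of probe sets, a variance trend and leaving out each array. Same-numbered arrays of different groups correlated between -0.11 and 0.09 in their deviations, so the numbers were not taken as pairs. The 3 arrays in a group limit the precision.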

Additional observations from a re-analysis of the deposited data

How the results depend on the processing

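The 50 differences of the 10 BCL2 family genes were recomputed under up to 20 alternatives. The 11 called differences kept their direction in all of them, and all but the fall of Bid in WT AKI kidneys stayed called. Some alternatives leave the log2 differences of these genes as they are, so in them no direction could change. These are the mean of probe sets, the filter on background, the variance trend, the replicate block and fitting only the groups compared. Leaving out an array outside the groups compared does the same. Of 975 values, 943 kept direction and side of the threshold, 6 newly passed it, 3 no longer passed it and 23, in 12 uncalled differences, changed sign. The filter on background left out Bad, Bcl2l11 and Bmf, which have no value there. The cause of each change was not tested.

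The sign changes were small. Bok in KO AKI against WT AKI kidneys gave 0.01 under quantile normalization and under median centring. With array weights Mcl1 gave -0.02 in KO AKI against WT AKI kidneys and -0.03 in the interaction, and Bad 0.03 in the interaction. Leaving out each array in turn, KO AKI against WT AKI ranged from -0.11 to 0.11 for Bok and from -0.03 to 0.38 for Mcl1, and KO AKI against KO control from -0.43 to 0.03 for Bid and from -0.30 to 0.04 for Bad. Bcl2 in WT AKI against WT control ranged from -0.06 to 0.34. KO control against WT control ranged from -0.01 to 0.30 for Bok, -0.23 to 0.11 for Bad and -0.16 to 0.29 for Mcl1, and the interaction from -0.30 to 0.01 for Bok, -0.29 to 0.04 for Bik, -0.13 to 0.33 for Mcl1 and -0.22 to 0.12 for Bad.

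The number of listed genes called between KO AKI and WT AKI was 0 throughout, apart from 3 without KO AKI replicate 1, so leaving out single arrays gave 0 to 3. Counts over all genes moved more. KO AKI against WT AKI had 95 called genes, 183 with array weights, 179 with the filter on background, 1 with only the groups compared, and 2 to 1174 leaving out single arrays (40, 54 and 37 without WT control replicates 1, 2 and 3, 44, 2 and 4 without WT AKI replicates 1, 2 and 3, 42 and 52 without KO control replicates 1 and 2, and 1174 and 40 without KO AKI replicates 1 and 3). KO AKI against KO control had 5445, and 3607 with only the groups compared. WT AKI against WT control had 2726, 4286 with array weights, 1577 with the filter, and 1469 to 4040 leaving out single arrays (1469 to 1806 without any 1 of the 6 WT arrays). KO control against WT control had 10, 35 with array weights, 21 with only the groups compared, and 1 to 27 leaving out single arrays (2 and 3 without WT control replicates 1 and 3, 1 without KO control replicate 1, 27 without KO AKI replicate 2). The interaction had 6, 63 with array weights, 3 with the filter, 2 under quantile normalization, 12 with a variance trend, and 0 to 337 leaving out single arrays, the 337 without KO AKI replicate 1 (44 when replicate 2 and 1 when replicate 3 was left out, 11 without WT AKI replicate 1, and 0 without WT control replicate 1 or 3, WT AKI replicate 2 or 3 or any KO control array).

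With the replicate block, counts over all genes were 44 for KO AKI against WT AKI, 6 for KO control against WT control and 0 for the interaction. It added Bcl2l11 (0.70, adjusted p = 0.0309 by limma) to the calls in KO kidneys and changed no other call of a listed gene.

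Of the 75 pathway genes, leaving out single arrays gave 9 to 19 upregulated and 3 to 7 downregulated in WT kidneys (9 without WT AKI replicate 3, and 3 without WT control replicate 3 or WT AKI replicate 3), and 4 to 9 downregulated in KO kidneys (4 without KO control replicate 3). Median centring moved the median of all genes to -0.07 in KO and -0.09 in WT kidneys, from 0.06 in both, and the calls to 2290 higher and 3178 lower in KO AKI kidneys (main 2996 and 2449) and 1097 higher and 1731 lower in WT AKI kidneys (main 1684 and 1042). Under quantile normalization they were 2658 and 2743 in KO AKI and 1302 and 1265 in WT AKI kidneys.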

Other observations

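The other marker lists gave these counts in the same fits. Of 6 loop of Henle and distal tubule markers, 4 were called lower in KO AKI than in KO control kidneys and 4 in WT AKI than in WT control kidneys. Of 6 collecting duct markers, 3 were called lower in KO AKI than in KO control and 1 in WT AKI than in WT control kidneys, and of 6 endothelial markers 4 in KO AKI than in KO control kidneys and 0 in WT kidneys, where 2 had an unadjusted p under 0.05 by limma. The endothelial markers also differed before cisplatin: their summed log2 signal was 13.55 to 13.93 in KO control and 12.44 to 13.31 in WT control kidneys, with 6 of 6 higher in KO control, a median log2 difference of 0.93, 0 called by limma and 5 with an unadjusted p under 0.05. In the AKI kidneys it was 12.10 to 12.42 in KO and 12.14 to 12.42 in WT. Of 6 measured T cell markers, Cd3e, Cd3d, Cd3g, Cd8a and Cd2 were above background on no array. Of these 6 markers, 1 was called lower in KO AKI than in KO control kidneys and 0 in WT AKI than in WT control kidneys. The B and plasma cell list rested on Jchain, the only one of 5 measured genes above background, and its summed log2 signal was 12.30 to 12.48 in KO AKI, 7.41 to 8.73 in WT AKI, 14.29 to 14.91 in KO control and 8.09 to 8.57 in WT control kidneys. Of these 5 genes, 2 were called lower in KO AKI than in KO control and 0 in WT AKI than in WT control kidneys. Between genotypes, 1 was called higher in KO AKI than in WT AKI and 1 in KO control than in WT control kidneys. The part of these cell types in the signals of the BCL2 family genes was not tested.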
